A study of Mus musculus with 14 samples.

Results

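Atg14 loss in central regulatory T cells (cTregs) was read from the accessible chromatin of 7 libraries out of 14 in the series, 3 of control and 4 of Atg14-deficient cTregs, which were chosen by genotype and cell state alone. Bulk assay for transposase-accessible chromatin with sequencing (ATAC-seq) was used, in which a transposase inserts adapters where DNA is exposed, and the count of a region measures its accessibility. The cells were splenic cTregs sorted as CD4+Foxp3-YFP+CD44–CD62L+ from mixed bone marrow (BM) chimeras. CD45.2+ BM, either control (Foxp3Cre Atg14+/fl) or Foxp3Cre Atg14fl/fl, had been mixed with equal amounts of CD45.1+ wild-type BM and given to sublethally irradiated Rag1–/– hosts, which lack mature T and B cells of their own, and the CD45.2+ cells were taken after 6 to 8 weeks. Both genotypes therefore carried the Foxp3Cre allele, which deletes floxed sequence in cells that express Foxp3, and the controls carried 1 floxed Atg14 allele, so that cells with 2 floxed alleles were compared with cells that had 1. In some experiments the study also used Atg14-deficient mice that bore a deleted Atg14 allele, and it does not say whether any were donors here. The study used mice of both sexes and names 3 control and 4 Atg14-deficient chimeras, the number of libraries in each cell state. Ages of the BM donors and hosts were not stated separately from those of the other mice, and p-values measure the spread between these libraries. Effector Tregs (eTregs, CD44+CD62L–) of the same 2 genotypes, 3 control and 4 Atg14-deficient libraries, were used for side by side values.

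Atg14 is a subunit of 1 of the complexes of the lipid kinase Vps34. That complex marks membranes with a phosphoinositide and starts the autophagosome, the double membrane that carries cytoplasmic material to the lysosome. cTregs are the resting Treg pool of lymphoid organs. They recirculate through receptors such as Ccr7 and S1pr1, under transcription factors such as Klf2, Tcf7, Lef1 and Bach2, and become eTregs after T cell receptor (TCR) and cytokine signals. AP-1 dimers of Jun, Fos and Batf family members bind many of the regions that open on such activation.

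The sequences below, in GRCm38 and on the plus strand, are the central 200 bases of 4 of the regions in which the 2 genotypes differed most, all between genes or in an intron. They are shown because single regions such as these, 1 of them near the cell death gene Bmf, carried the clearest differences between the genotypes, and all 4 were more accessible in Atg14-deficient cTregs. None of the 4 holds the AP-1 letters searched for here, so no letters are in capitals.
Bmf, chr2:118554434-118554633: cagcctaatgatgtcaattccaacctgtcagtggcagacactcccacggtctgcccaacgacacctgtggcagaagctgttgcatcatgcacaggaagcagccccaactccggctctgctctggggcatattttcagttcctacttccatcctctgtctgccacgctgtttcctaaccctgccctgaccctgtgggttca
Slc22a8, chr19:8518367-8518566: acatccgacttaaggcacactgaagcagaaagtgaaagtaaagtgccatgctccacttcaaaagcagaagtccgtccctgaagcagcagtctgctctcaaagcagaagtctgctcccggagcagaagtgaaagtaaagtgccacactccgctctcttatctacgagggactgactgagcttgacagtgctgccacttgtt
Gda, chr19:21507755-21507954: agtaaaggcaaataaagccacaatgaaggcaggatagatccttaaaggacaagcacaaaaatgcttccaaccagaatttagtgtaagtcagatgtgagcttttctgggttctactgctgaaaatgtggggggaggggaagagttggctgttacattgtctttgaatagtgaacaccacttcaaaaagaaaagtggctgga
Gm15708, chr5:144283858-144284057: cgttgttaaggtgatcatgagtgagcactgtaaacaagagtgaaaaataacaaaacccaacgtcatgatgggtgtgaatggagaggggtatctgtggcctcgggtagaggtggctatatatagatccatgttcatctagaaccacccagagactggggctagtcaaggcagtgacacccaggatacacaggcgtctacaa

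The control and Atg14-deficient cTreg libraries were alike over the genome as a whole. Counts in the tested regions correlated between libraries of different genotype with Pearson's r from 0.839 to 0.915 (log2 scale, 12 pairs), against 0.857 to 0.911 within the controls (3 pairs) and 0.850 to 0.893 within the Atg14-deficient libraries (6 pairs). These correlations are across regions, which are not replicates. Total counts ranged from 2242983 to 4178190 in controls and from 2381466 to 3803486 in Atg14-deficient cTregs (exact permutation test, two-sided, p = 0.4, where the smallest p possible with 3 against 4 is 0.0571). The share of counts within 1 kb of a transcription start was 54.1%, 52.7% and 58.1% in control replicates 1, 2 and 3, and 52.7%, 55.3%, 52.5% and 51.5% in Atg14-deficient replicates 1 to 4 (exact permutation test, two-sided, p = 0.314). Control replicate 3 stood apart, with the lowest total, the highest promoter share and 5.07% of tested regions at a count of 0, against 0.526% to 2.97% in the other cTreg libraries. Marker genes of the sorted and of other cells were read at regions within 1 kb of their starts. All 4 central Treg markers had such regions, with summed levels of 118 to 138 CPM (a region's count scaled to a fixed library total) in controls and 111 to 152 CPM in Atg14-deficient cTregs. For the Treg markers, 3 of 6 had one (Il2ra, Ctla4 and Cd3e) and 3 did not (Foxp3, Ikzf2 and Cd4), so that the label of the sort could be checked only in part. Their sums were 68.7 to 84.2 CPM in controls and 85.3 to 111 CPM without Atg14. These sums did not overlap, while the levels of Il2ra, Ctla4 and Cd3e each overlapped between genotypes. Of the markers of other cells, regions were present at 2 of 8 for B cells, 4 of 10 for myeloid cells, 5 of 8 for CD8 and NK cells, and 2 of 8 for erythroid cells and platelets, with none at Cd79a, Cd8a, Ncr1, Lyz2, Itgam or Gata1. Control replicate 2 and Atg14-deficient replicate 4 had the highest cTreg sums of the eTreg genes Klrg1 and Il1rl1. Klrg1 was at 55.3 and 53.97 CPM there, against at most 36.5 CPM in the others and 54.07 to 77.9 CPM in control eTregs. Il1rl1 was at 72.04 and 63.3 CPM, against at most 41.8 CPM. Prdm1, another eTreg gene, was lowest of its genotype in both, at 221 and 219 CPM. Whether these libraries held more eTreg-like cells was not tested. In bulk libraries, a change in the accessibility of each cell and a change in the mixture of cells cannot be told apart.

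Few regions differed by genotype in cTregs. Of 61366 tested regions, 10 (0.0163%) passed a Benjamini-Hochberg adjusted p of 0.05 with a log2 fold change beyond 0.5 by edgeR's quasi-likelihood test, 9 of them more and 1 less accessible without Atg14. At the looser threshold of an unadjusted p of 0.05 with the same fold change, here termed called, 1224 regions (1.99%) were more and 828 (1.35%) less accessible, together 3.34%. At any fold change, 4.01% of regions had an unadjusted p below 0.05, which is fewer than the test's own error rate, so that calls at the looser threshold are given as values and not as established changes. Levels that did not overlap between the 3 control and 4 Atg14-deficient libraries were seen at 3374 regions (5.5%), higher without Atg14 at 1872 (3.05%) and lower at 1502 (2.45%). When the counts of all regions with the same nearest gene were summed, 10 of 17627 genes (0.0567%) passed the adjusted threshold, and 407 (2.31%) passed the looser one, 235 upward (1.33%) and 172 downward (0.976%). At any fold change 4.34% of genes had an unadjusted p below 0.05.

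**Figure D1:**
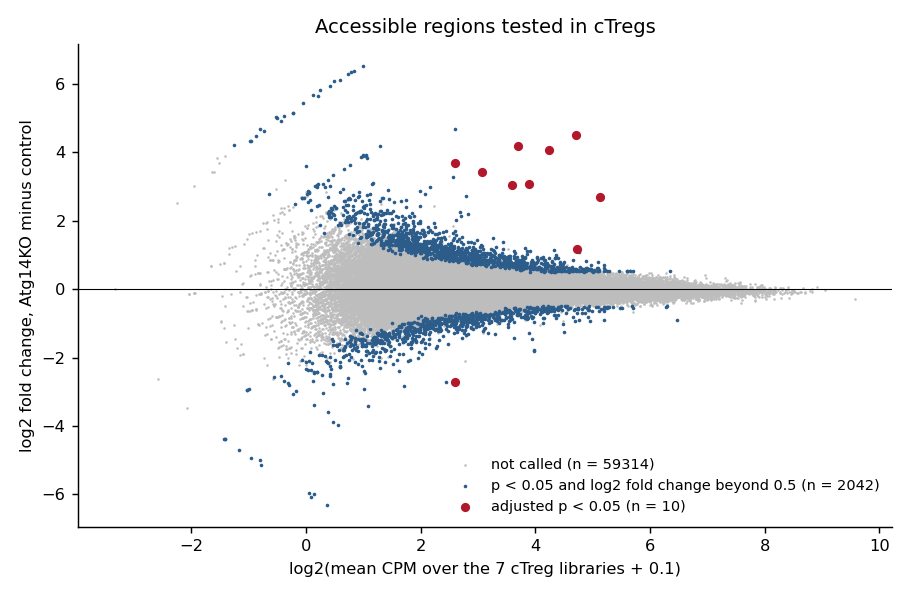
Each point is 1 of the 61366 regions tested in cTregs, with its mean level over the 7 libraries (x axis, log2 of CPM plus 0.1) and its log2 fold change, Atg14-deficient minus control (y axis). The 10 regions past the adjusted threshold are red and those that passed only the looser threshold are blue. Some blue points at low levels have larger log2 fold changes than any red point, and the diagonal rows at low levels are regions with counts of 0 in 1 genotype.

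The most different locus was H2-M3, which encodes a non-classical MHC class I molecule that presents N-formylated peptides. Its intronic region (chr17:37270769-37271193) was at 2.44, 0.957 and 2.68 CPM in control cTregs and at 47.0, 31.1, 50.5 and 46.9 CPM in Atg14-deficient cTregs. The groups were far apart, with a log2 fold change of 4.49 ± 0.34 (SE, n = 3 and 4, edgeR adjusted p = 4.4e-09). A second region, 51 bp upstream of the start (chr17:37270028-37270338), was at 1.47, 0.479 and 1.78 CPM in controls and at 21.0, 17.1, 25.8 and 22.5 CPM without Atg14 (log2 fold change 4.19 ± 0.43, edgeR adjusted p = 1.8e-06). Both regions passed the adjusted threshold in all 18 of the alternative fits that tested them. In eTregs, which are other libraries, the same regions had log2 fold changes of 4.46 ± 0.34 and 3.37 ± 0.37, so that the difference between genotypes was present in both cell states. H2-T3, another non-classical MHC class I gene on chromosome 17, had both of its regions called, with sums of 1.96, 0 and 0.892 CPM in controls and 6.72, 14.8, 11.04 and 18.6 CPM without Atg14 (edgeR adjusted p = 0.00835). The H2-T3 sums also did not overlap, and their edgeR adjusted p was 0.0712 without control replicate 3 and 0.0658 with thinned counts.

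Bmf, which encodes a BH3-only protein that promotes apoptosis by binding Bcl-2 family members, was the one gene of the cell death list with a strong difference. A region 4848 bp upstream of its start (chr2:118554247-118554822, first shown above) was at 8.80, 4.31 and 13.4 CPM in control cTregs and at 61.7, 52.9, 50.5 and 51.7 CPM in Atg14-deficient cTregs. That is a log2 fold change of 2.69 ± 0.35 (SE, n = 3 and 4, edgeR adjusted p = 0.00185, and 0.0782 without control replicate 1). All 7 of its regions were tested, 4 were called more accessible and 0 less, among them the promoter region at 15 bp upstream (log2 fold change 1.10 ± 0.34). Summed over the 7 regions, Bmf rose from 41.4 ± 7.71 CPM (SD, n = 3) to 112 ± 11.99 CPM (SD, n = 4), with no overlap (edgeR adjusted p = 4.79e-05). The sum passed in all 20 of the alternative fits. In eTregs the sum was 25.5 ± 8.18 CPM in controls (SD, n = 3) and 100.7 ± 11.8 CPM without Atg14 (SD, n = 4).

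Slc22a8, which encodes an organic anion transporter of the kidney and brain barrier, was the nearest gene of a region 72787 bp from its start (chr19:8518263-8518671). It was at 2.93, 3.35 and 1.78 CPM in controls and at 22.7, 18.7, 23.9 and 29.6 CPM in Atg14-deficient cTregs (log2 fold change 3.07 ± 0.31, edgeR adjusted p = 1.8e-06). The distance is large, and with regions limited to 50 kb from the start the sum for Slc22a8 no longer passed (log2 fold change 0.18, edgeR adjusted p = 0.998). Zfp932 encodes a zinc finger protein. The region at 22 bp upstream of its start (chr5:109996315-109996661) was at 0.489, 0.957 and 5.35 CPM in controls and at 31.9, 43.6, 23.4 and 25.1 CPM without Atg14 (log2 fold change 4.06 ± 0.49, edgeR adjusted p = 0.00044). The highest control was replicate 3, and the groups did not overlap. Gda encodes guanine deaminase, an enzyme of purine breakdown. A region 35194 bp upstream (chr19:21507495-21508216) was at 0.978, 0.957 and 0 CPM in controls and at 13.4, 3.11, 5.78 and 17.3 CPM without Atg14 (log2 fold change 3.67 ± 0.60, edgeR adjusted p = 0.0122), a wide spread within the Atg14-deficient group. Its adjusted p was 0.166, 0.132, 0.0877 and 0.0545 without control replicates 1, 2 and 3 and Atg14-deficient replicate 1, 0.129 with only the 7 cTreg libraries and 0.0546 with counts thinned to the smallest total. The predicted genes Gm15708 and Gm15910 each had 1 region past the adjusted threshold. All 3 regions of Gm15708 were called more accessible, and their sum was at 4.40, 6.22 and 4.90 CPM in controls and at 23.5, 19.5, 26.03 and 34.7 CPM without Atg14 (log2 fold change 2.31 ± 0.37, edgeR adjusted p = 0.00468, but 0.116 and 0.0509 without control replicates 1 and 3). The one past the threshold (chr5:144283719-144284197, in an intron of Baiap2l1) was between 0.978 and 1.44 CPM in controls and between 9.34 and 19.3 CPM without Atg14, and its adjusted p was 0.0782 without control replicate 1. The Gm15910 region (chr10:120857477-120858095, also in an intron of Msrb3) was between 1.44 and 2.93 CPM in controls and between 8.40 and 26.9 CPM without Atg14, and its adjusted p was 0.139, 0.213 and 0.0877 without control replicates 1, 2 and 3. In both regions, all 4 Atg14-deficient libraries lay above all 3 controls.

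The region of Pnp2 was the 1 of the 10 past the adjusted threshold with lower accessibility. Other fits gave other splits of such regions, with 14 more and 4 less accessible by the DESeq2 Wald test, 9 and 5 with each library's promoter share as a covariate, 9 and 0 with the replicate block and 7 and 0 with thinned counts. Without single libraries there were from 4 to 10 more and from 0 to 2 less, with 2 less without Atg14-deficient replicate 1 or 4 and 0 less without any one control or Atg14-deficient replicate 2. It encodes a purine nucleoside phosphorylase, which releases bases from purine nucleosides. The region covers its first coding exon (chr14:50955912-50956512) and was at 8.80, 13.2 and 12.5 CPM in controls and at 2.52, 1.56, 0.526 and 2.57 CPM in Atg14-deficient cTregs (log2 fold change -2.71 ± 0.46, edgeR adjusted p = 0.0157). Over both of its regions Pnp2 fell from 22.5 ± 0.223 CPM (SD, n = 3) to 7.03 ± 1.89 CPM (SD, n = 4, edgeR adjusted p = 0.0109). That sum passed in 12 of 20 alternative fits. Its edgeR adjusted p was 0.0725 with the replicate block, 0.0752 with block and GC-content offsets and 0.117 with thinned counts, and from 0.0543 to 0.116 without any one control or Atg14-deficient replicate 1 or 3. The region kept an adjusted p below 0.05 in 10 of 18 alternative fits, with values of 0.0811 with the block, 0.0515 with block and GC-content offsets and 0.0546 with thinned counts, and from 0.055 to 0.165 without any one control or Atg14-deficient replicate 2 or 3. Because near-identical copies such as Pnp and Pnp2, or members of the MHC and zinc finger families, can share reads, levels at Pnp2, H2-M3, H2-T3 and Zfp932 are uncertain. The authors filtered reads on mapping quality, and whether shared reads were counted at these regions was not tested.

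The genotype effect was also compared between the cell states. At the Gm15708 region the log2 fold change was 3.42 ± 0.50 in cTregs and 1.15 ± 0.47 in eTregs, while 0 of 61366 regions passed an adjusted p of 0.05 in edgeR's test of that difference, against 3.25% with an unadjusted p below 0.05.

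**Figure D2:**
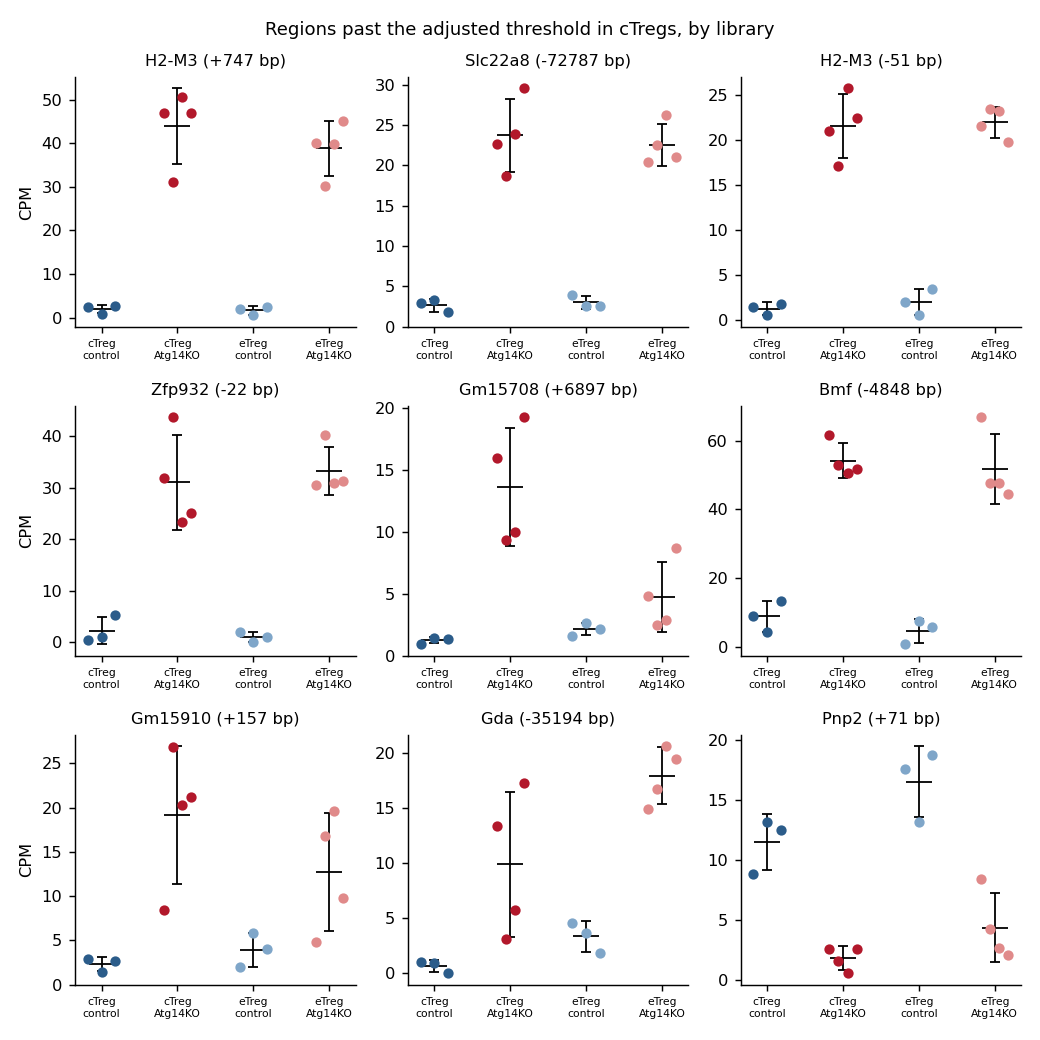
Levels (y axis, CPM) of 9 of the 10 regions past the adjusted threshold in cTregs are shown for each library of the 4 groups (x axis), with the mean and SD as bars, and the position of each region against the start of its nearest gene in brackets. In cTregs all Atg14-deficient libraries lie below all controls in the Pnp2 panel and above them in the other panels, while the eTreg groups at Gm15708 lie closer together.

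The examples above were chosen for their adjusted p in cTregs. Over all called regions, the median log2 fold change in eTregs was 0.33 for those more accessible in cTregs and -0.18 for those less accessible. It was 0.06 over all tested regions. Among 1224 regions with higher accessibility in Atg14-deficient cTregs, 188 (15.4% of them) were also called more accessible in eTregs, which is 6.67% of the eTreg list, and 4.59% of all tested regions were on that list. For lower accessibility, 96 of 828 (11.6%, or 8.86% of the eTreg list) were shared, against 1.77% of tested regions. The cTreg and eTreg comparisons use different libraries, but the study gives the same numbers of chimeras for both states together, so that both states may come from the same mice and their values are not independent.

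Atg14 itself, on chromosome 14 (chr14:47540893-47568434, minus strand), gave no measure of its deletion. Its promoter region (chr14:47567952-47568659) was at 22.5, 27.8 and 35.2 CPM in controls and at 24.4, 25.7, 16.8 and 20.2 CPM in Atg14-deficient cTregs. The groups overlapped, with a log2 fold change of -0.38 ± 0.23. Of 7 tested regions nearest to Atg14, 0 passed the adjusted threshold and 1 was called, an intronic region (chr14:47551355-47551722) at 5.87, 5.27 and 6.24 CPM in controls and at 14.3, 10.9, 9.99 and 6.42 CPM without Atg14 (log2 fold change 0.84 ± 0.33). Summed over the 7 regions, levels were 90.9, 96.9 and 118 CPM in controls and 105, 115, 91.0 and 92.8 CPM without Atg14. The floxed exons are not given in the sources used here. It is therefore not known whether any of these regions lie in them, and the deletion could not be measured.

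The regions around Atg14 were called more often than the genome as a whole. Within 1 Mb of its start, 3 regions were more and 4 less accessible of 71 tested (9.86%), and within 10 Mb 14 were more and 12 less accessible of 422 (6.16%). Pnp2 lies within that distance, and 4 of the 14 more accessible regions had Gm30214 as their nearest gene, 5.21 to 5.99 Mb from the Atg14 start. Over all chromosomes, the share of tested regions called ran from 2.65% (chromosome X) to 4.71% (chromosome 14). In windows of 2 Mb with at least 20 tested regions, the median share was 2.94%. The windows with the highest shares included one on chromosome 19 with Ostf1, Nmrk1, Carnmt1 and Rorb (0 more and 7 less of 25, 28%) and one on chromosome 17 with H2-M3, H2-T3, Trim10 and olfactory receptor genes (12 more and 1 less of 58, 22.4%). One on chromosome 4 with Elavl4, Agbl4 and Bend5 followed (0 more and 8 less of 46, 17.4%). The windows were ranked on these same calls, and the shares are descriptions.

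**Figure D3:**
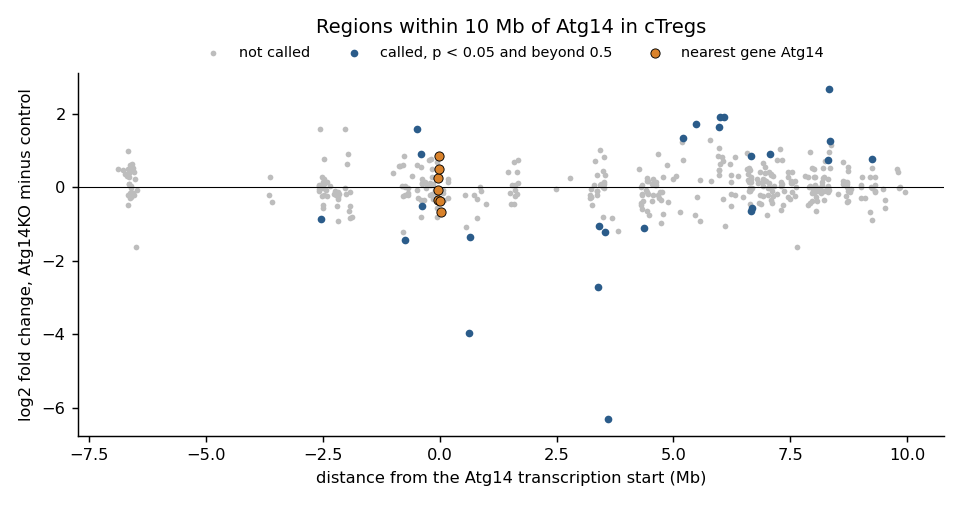
Log2 fold changes (y axis, Atg14-deficient minus control cTregs) of the 422 regions tested within 10 Mb of Atg14 are plotted against their distance from its start (x axis, Mb). The 7 regions nearest to Atg14 (orange) lie on both sides of 0, between -0.68 and 0.84, and the called regions (blue) include 14 above and 12 below 0.

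Genes with several called regions in 1 direction were rare. In the direction of higher accessibility, 20 of 17577 genes had at least 3 called regions and 0 in the opposite direction, and in the direction of lower accessibility 6 had. Gm15918, a predicted gene with 5 of 7 regions called, was at 31.0, 36.6 and 24.5 CPM in controls and at 60.9, 49.8, 59.9 and 64.9 CPM without Atg14 by its sum (log2 fold change 0.92 ± 0.16, edgeR adjusted p = 0.00835, but 0.116 and 0.113 without control replicates 1 and 3 and 0.0512 with only the 7 cTreg libraries). All 3 regions of Apobec2, a member of the family of cytidine deaminases, were called, with sums between 0.892 and 2.87 CPM in controls and between 10.1 and 19.3 CPM without Atg14 (edgeR adjusted p = 0.00835, but 0.12 and 0.0823 without the same controls and 0.0755 with thinned counts). Akap13, an anchoring protein for protein kinase A, had 4 of 26 tested regions called more accessible, and its sum did not pass (log2 fold change 0.17 ± 0.08). Among the genes with called regions of lower accessibility only, Stk39, a kinase that regulates ion cotransporters, had 4 of 26. Its sums overlapped (679 ± 64.0 CPM, SD, n = 3, against 621 ± 65.1 CPM, SD, n = 4). Bend5 had 3 of 16, and a sum of 181, 137 and 140 CPM in controls and 98.3, 85.3, 138 and 108 CPM without Atg14 (log2 fold change -0.50 ± 0.15, edgeR adjusted p = 0.93). Elavl4, a neuronal RNA-binding protein gene, had 3 of 7, with a control range from 57.7 to 142 CPM that covered part of the Atg14-deficient range from 37.6 to 71.0 CPM.

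Calls near genes that define the central Treg state were few, and their number depended on single libraries. Of 323 tested regions near 18 genes of this state, 5 (1.55%) were more and 1 (0.31%) less accessible, against 1.99% and 1.35% of all tested regions, and the median log2 fold change was 0.07, against 0.03 over all. Without single libraries, and with the filter on low counts applied again each time, these counts ran from 3 more (without control or Atg14-deficient replicate 3) to 10 more (without control or Atg14-deficient replicate 2), and from 0 less (without control replicate 1) to 4 less (without Atg14-deficient replicate 2). The promoter region of the lymph node homing receptor Ccr7 was at 38.4, 28.7 and 23.6 CPM in controls and at 43.7, 18.7, 42.9 and 44.0 CPM without Atg14 (log2 fold change 0.29 ± 0.25). Promoter regions of the transcription factor genes Tcf7, Lef1 and Klf2 had log2 fold changes of -0.26 ± 0.49, -0.08 ± 0.16 and 0.14 ± 0.15, and their libraries overlapped between genotypes. The S1pr1 promoter region had 0.24 ± 0.20, while a region of low counts at 5514 bp from its start (chr3:115709460-115709623) was called, at 3.18, 2.39 and 0 CPM in controls and at 9.66, 3.89, 7.62 and 4.82 CPM without Atg14. Il7r, the receptor for the survival cytokine IL-7, was the 1 of 18 genes tested with an unadjusted p below 0.05 by its sum, against 4.34% of all genes tested. Its sum was 188 ± 18.3 CPM (SD, n = 3) in controls and 233 ± 27.2 CPM (SD, n = 4) without Atg14 (log2 fold change 0.31 ± 0.12, edgeR adjusted p = 0.997).

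Treg identity genes had 9 regions (4.71%) more and 4 (2.09%) less accessible of 191 tested, both above the shares over all regions, and from 6 to 9 more and from 2 (without Atg14-deficient replicate 3) to 5 less without single libraries. The 9 and 4 regions were near Ctla4, Entpd1, Ikzf2, Il2ra, Izumo1r, Lrrc32, Capg and Nt5e. Lrrc32, which encodes the GARP protein that displays latent TGF-beta, had 3 of the 9, among them one 1020 bp upstream (chr7:98488825-98489117) at 8.31, 8.86 and 9.36 CPM in controls and at 14.3, 17.1, 10.8 and 18.3 CPM without Atg14 (log2 fold change 0.77 ± 0.32). An intronic region of Nt5e, which encodes the adenosine-producing enzyme CD73, was lower (chr9:88332420-88332872), at 22.2, 20.1 and 16.1 CPM in controls and at 9.24, 12.5, 15.2 and 5.78 CPM without Atg14 (log2 fold change -0.86 ± 0.35). Neither pair of groups overlapped, and neither region passed the adjusted threshold. Foxp3 had 1 tested region, at 24.4, 18.9 and 19.6 CPM in controls and at 20.2, 12.5, 21.0 and 26.7 CPM without Atg14, values that overlapped. The promoter regions of Il2ra and Ctla4 had log2 fold changes of 0.51 ± 0.28 and 0.21 ± 0.16, and their libraries overlapped between genotypes.

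Genes of the effector and tissue Treg state had 8 regions (2.39%) more and 5 (1.49%) less accessible of 335, against 1.99% and 1.35% of all tested regions, and a median log2 fold change of 0.02. Without single libraries these counts ran from 5 to 21 more and from 0 to 14 less, with the extremes of 21 and 0 without control replicate 2 and of 14 less without Atg14-deficient replicate 4. Areg encodes the repair factor amphiregulin and is a gene of tissue Tregs. It was the 1 of 32 genes tested with an unadjusted p below 0.05 by its sum, against 4.34% of all genes tested. Its 4 regions summed to 30.1, 38.5 and 22.3 CPM in controls and to 23.5, 11.7, 17.6 and 17.3 CPM in Atg14-deficient cTregs (log2 fold change -0.82 ± 0.22, edgeR adjusted p = 0.684), with 1 Atg14-deficient library above the lowest control. The promoter regions of Cd44, also a gene of the sort, and of Icos, Klrg1 and Prdm1, markers or regulators of eTregs, had log2 fold changes of 0.04 ± 0.22, 0.29 ± 0.19, 1.39 ± 0.82 and -0.04 ± 0.17, and their libraries overlapped between genotypes. At the Klrg1 promoter region the counts were low, with levels from 0 to 1.91 CPM in controls and from 1.05 to 3.85 CPM without Atg14. The Jun and Fos family had 1 region called more accessible, at the Batf promoter, and 0 less of 59 tested (1.69% and 0, against 1.99% and 1.35% of all). There were from 0 (without control replicate 1 or 3 or Atg14-deficient replicate 3) to 2 more (without control replicate 2) when single libraries were left out.

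The autophagy list, in which Atg14 acts, had 2 regions (1.35%) more and 0 less accessible of 148 near 40 genes, against 1.99% and 1.35% of all tested regions, and a median log2 fold change of 0.01, against 0.03 over all. Without single libraries these counts ran from 2 to 4 more, with 4 without control replicate 3, and from 0 to 3 less, with 3 without control replicate 3 or Atg14-deficient replicate 4. Besides the Atg14 intron, the called region was in an intron of Atg10 (chr13:91094216-91094596), the E2-like enzyme that joins Atg12 to Atg5. It was at 16.1, 17.7 and 7.13 CPM in controls and at 29.0, 19.1, 24.2 and 33.4 CPM without Atg14 (log2 fold change 0.91 ± 0.27), without overlap. Of 40 genes tested by their sums, Map1lc3a, an LC3 gene, was the 1 with an unadjusted p below 0.05, against 4.34% of all genes tested. Its groups overlapped (29.6 ± 3.48 CPM, SD, n = 3, against 40.4 ± 10.8 CPM, SD, n = 4). The lysosome list had 1 region (1.05%) more and 0 less of 95, also below the shares over all regions, and from 0 (without Atg14-deficient replicate 1) to 4 more (without control replicate 2) and from 0 to 1 less without single libraries.

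In the cell death list, 4 regions, all of Bmf, (2.41%, against 1.99% of all tested regions) were more accessible and 1 (0.602%, against 1.35%) was less accessible of 166. Without Atg14-deficient replicate 4 there were 3 more and 7 less, and without control replicates 1 or 2 there were 6 more and 1 less. Without control replicate 3 there were 3 of each. The lower one was the promoter region of Bik, another BH3-only gene (chr15:83526525-83526986), at 6.35, 6.22 and 8.92 CPM in controls and at 1.68, 4.28, 4.47 and 3.21 CPM without Atg14 (log2 fold change -1.01 ± 0.41). Genes of mitochondria and oxidative stress had 3 regions (3.16%, against 1.99% of all) more and 1 (1.05%, against 1.35%) less of 95. They had from 1 more (without Atg14-deficient replicate 1 or 4) to 3 more and from 0 (without Atg14-deficient replicate 3) to 3 less (without Atg14-deficient replicate 4) when single libraries were left out. The list had the lowest median of the pathway lists, -0.09, with 35.8% of regions above 0 against 53.5% of all tested regions. Of 33 genes tested by their sums, 2 had an unadjusted p below 0.05 upward and 1 downward, against 400 upward and 365 downward of all 17627 genes. The first were Nfe2l2 and Gpx1, a transcription factor and a peroxidase of the antioxidant response. The lower one was Pink1, a kinase of mitochondrial quality control. Gpx1 was at 18.6, 26.8 and 22.3 CPM in controls and at 39.1, 22.6, 31.3 and 39.2 CPM without Atg14, so that 1 library overlapped. The mTORC1, Myc and glycolysis list had 1 region (0.685%, against 1.99% of all) more and 2 (1.37%, against 1.35%) less of 146, near Ddit4, an inhibitor of mTORC1, and Hif1a. Without single libraries there were from 1 to 5 more and from 0 to 5 less, with 5 and 0 without control replicate 2 and 2 and 5 without Atg14-deficient replicate 4.

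The TCR and costimulation list had 15 regions (3.56%) more and 1 (0.238%) less accessible of 421, against 1.99% and 1.35% of all tested regions, and a median log2 fold change of 0.13 with 65.8% of regions above 0, against 0.03 and 53.5%. The cytokine receptor, STAT and SOCS list was alike, with 10 (3.5%) more and 1 (0.35%) less of 286 and a median of 0.10. In the first list, 5 of 36 genes had sums with an unadjusted p below 0.05, all upward, among them Cd3e, Prkcq, Nfatc1 and Ptpn22, and 0 had one downward, against 400 upward and 365 downward of all 17627 genes. Cd3e, a chain of the TCR complex, was at 32.0, 32.6 and 25.0 CPM in controls and at 48.7, 43.6, 42.6 and 36.3 CPM without Atg14 (log2 fold change 0.50 ± 0.18, edgeR adjusted p = 0.997). Ptpn22, a phosphatase that restrains TCR signals, was at 124, 138 and 115 CPM in controls and at 167, 130, 164 and 160 CPM without Atg14, with overlap. In eTregs Ptpn22, Prkcq and Nfatc1 had log2 fold changes of 0.47, 0.36 and 0.32. The single lower region of the list was in an intron of the kinase gene Fyn (chr10:39376617-39377125), at 22.5, 18.2 and 20.5 CPM in controls and at 15.1, 9.34, 12.1 and 13.5 CPM without Atg14. In the cytokine list, a region near Socs3, a feedback inhibitor of STAT3 (chr11:117952196-117952547), was at 8.80, 7.42 and 6.24 CPM in controls and at 14.3, 12.5, 14.7 and 17.99 CPM without Atg14 (log2 fold change 0.97 ± 0.32). The counts of both lists depended on single libraries. Those of the cytokine list ran from 6 to 14 more and from 0 to 6 less, with 6 more and 6 less without control replicate 3. For the TCR list, without control replicate 3 they were 8 more and 4 less, without control replicate 2 they were 27 and 3, with each library's promoter share as a covariate 9 and 7, and the median log2 fold change lay between 0.03 and 0.17 over the alternatives, above 0 in each.

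Interferon response genes had 2 regions (1.92%) more and 1 (0.962%) less accessible of 104, against 1.99% and 1.35% of all tested regions, and from 0 to 4 more and from 1 to 3 less without single libraries, with 4 and 1 without Atg14-deficient replicate 2 and 0 and 3 without Atg14-deficient replicate 4. The lower one was the list region with the smallest p in that direction. It lies 26533 bp from the start of Usp18, an enzyme that removes the ubiquitin-like Isg15 and restrains interferon signalling (chr6:121271981-121272897), and was at 40.3, 37.3 and 43.7 CPM in control cTregs and at 18.5, 22.6, 25.2 and 24.4 CPM in Atg14-deficient cTregs. The groups were well apart (log2 fold change -0.82 ± 0.18, edgeR adjusted p = 0.298), and in eTregs the log2 fold change was -0.13 ± 0.18. Homing genes had 9 regions (2.93%) more and 1 (0.326%) less of 307, against the same 1.99% and 1.35%. Without single libraries these ran from 5 to 16 more and from 0 to 7 less, with 16 and 0 without control or Atg14-deficient replicate 2 and 7 and 7 without Atg14-deficient replicate 4. Itga2, an integrin subunit, had a sum of 117, 141 and 127 CPM in controls and of 155, 142, 170 and 165 CPM without Atg14, without overlap (log2 fold change 0.30 ± 0.10). The MHC list had 4 regions (7.55%, against 1.99% of all) more and 0 (against 1.35%) less of 53, which were the H2-M3 and H2-T3 regions given above, and a median log2 fold change of 0.24 with 83.0% of regions above 0, against 0.03 and 53.5%. Cell cycle genes had 3 more and 3 less of 124, 2.42% in each direction against 1.99% and 1.35%. Without single libraries they had from 1 (without Atg14-deficient replicate 3) to 4 more and from 1 (without control replicate 1 or 3 or Atg14-deficient replicate 1 or 2) to 3 less. Of the marker lists of other cells, the B cell list had 1 lower region of 8 tested (12.5%, against 1.35% of all), near Ebf1, the myeloid list 1 higher of 20 (5%, against 1.99%), near Spi1, and the CD8 and NK list 2 higher of 29 (6.90%), near Cd8a and Prf1, and erythroid markers had 0 of 9. Without single libraries the B cell list had 0 or 1 region in each direction, the myeloid list from 0 to 2 higher and 0 or 1 lower, and the CD8 and NK list 2 higher and 0 or 1 lower. The B cell region was not called without control replicate 2 or Atg14-deficient replicate 2 or 3, and the myeloid one was lost without Atg14-deficient replicate 4. Summed promoter levels of the CD8 and NK list, which include genes that T cells also use, ranged from 49.0 to 66.5 CPM in controls and from 66.8 to 89.9 CPM without Atg14. Of its genes with promoter regions, only Prf1 did not overlap by itself (8.92 to 17.2 CPM in controls, 17.9 to 35.3 CPM without Atg14). Levels at Cd8b1, Klrb1c, Eomes and Gzma overlapped between genotypes. The part of these levels in the results was not tested.

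**Figure D4:**
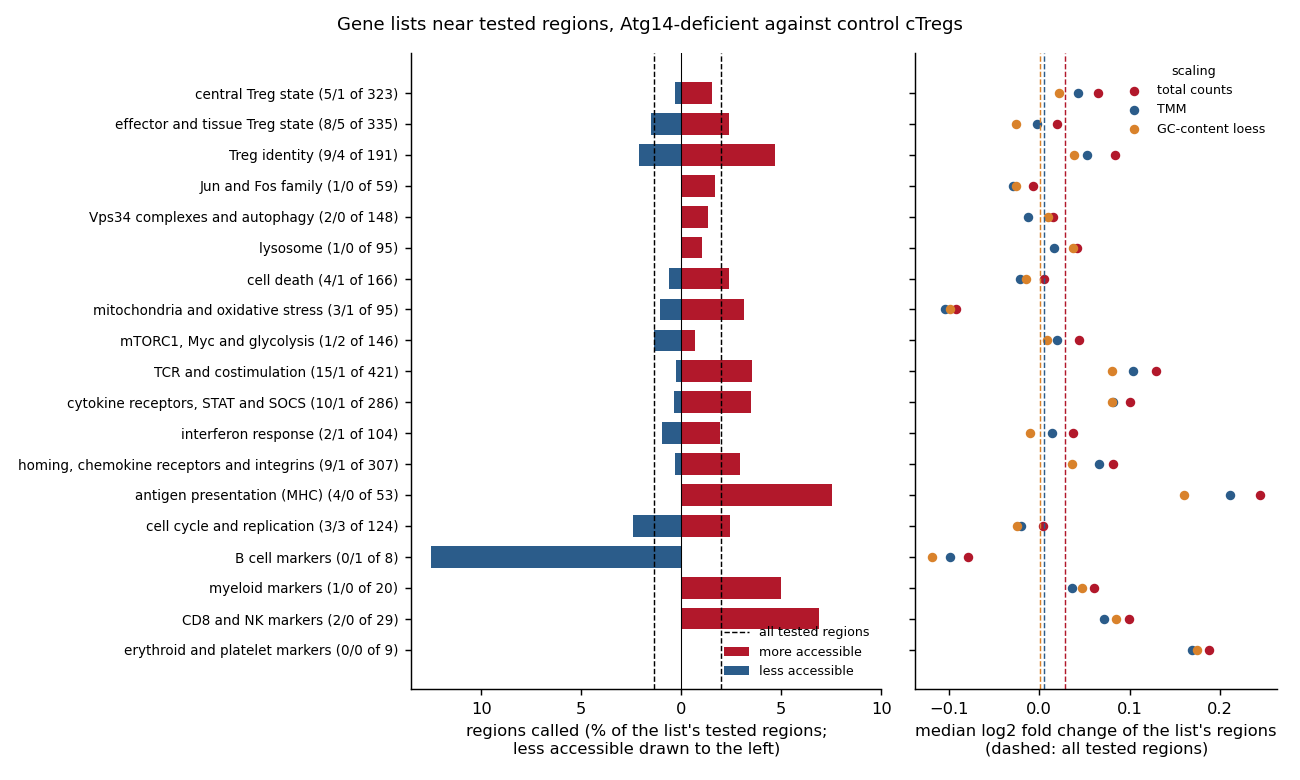
For 19 gene lists, the left panel gives the percentage of tested regions called more (red, to the right) and less accessible (blue, to the left) in Atg14-deficient cTregs, with the numbers beside each name and the shares over all tested regions as dashed lines. The right panel gives the median log2 fold change of each list's regions under 3 scalings, with the medians over all tested regions as dashed lines, and the MHC list has the highest median under total counts and TMM.

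Regions called more accessible were less often at promoters than tested regions in each fit, while those called less accessible were so in most. Within 1 kb of a transcription start were 10.0% of the regions more accessible (95% Wilson interval 8.49% to 11.9%, counting error only) and 18.5% of those less accessible (15.98% to 21.3%), against 22.7% of all tested regions. Of those less accessible, 24.5% were at promoters without control replicate 1 and 25.4% without control replicate 2, against 22.2% of regions tested in those fits. Of the regions called in the upward direction, 45.2% were intergenic and 48.4% intronic, against 43.9% and 44.6% of tested regions. Their median mean count was 16.3 per cTreg library, against 21.4 over all tested regions.

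The AP-1 motif (letters TGANTCA, which read the same on both strands) was found in the central 200 bp of 161 of 828 regions less accessible without Atg14 (19.4%, 95% Wilson interval 16.9% to 22.3%), of 126 of 1224 more accessible (10.3%, 8.71% to 12.1%) and of 11.5% of all tested regions. Away from promoters the shares were 22.5%, 10.99% and 13.8%. ETS letters (CCGGAAGT or AGGAAGTG) had the opposite order, with 6.40% of the less, 10.9% of the more accessible and 8.98% of all regions, and RUNX letters (TGTGGTT) were in 10.3%, 14.1% and 10.0%. The intervals for RUNX overlapped, and its order turned with each library's promoter share as a covariate, to 13.7% of the less and 12.3% of the more accessible regions. The shares of the letters searched for TCF/LEF, FOXO, IRF, NF-kappaB, KLF, GATA, E-box and CTCF factors in both called sets had intervals that overlapped each other. The total over all AP-1 regions did not separate the genotypes, since they took 7.49%, 8.35% and 6.43% of counts in controls and 7.496%, 7.11%, 7.23% and 8.31% without Atg14. The AP-1 shares changed order without control replicate 2, the control with the highest AP-1 share of counts. In that fit 12.2% of the less and 15.5% of the more accessible regions held the motif. Without control replicate 3, the control with the lowest such share, they were 24.5% and 9.45%.

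The following 3 sequences, in GRCm38 and on the plus strand, are the central 200 bases of regions with the AP-1 letters (in capitals) that were less accessible without Atg14, shown because they were among the regions of this kind with the smallest p and their shown bases lie outside exons. They lay near Gmfb, Kat2b, a histone acetyltransferase, and the predicted gene AU020206.
Gmfb, chr14:46818804-46819003: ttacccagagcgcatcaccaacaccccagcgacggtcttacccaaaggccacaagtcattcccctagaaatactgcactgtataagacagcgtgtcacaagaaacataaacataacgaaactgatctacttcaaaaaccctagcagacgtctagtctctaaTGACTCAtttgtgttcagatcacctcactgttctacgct
Kat2b, chr17:53582224-53582423: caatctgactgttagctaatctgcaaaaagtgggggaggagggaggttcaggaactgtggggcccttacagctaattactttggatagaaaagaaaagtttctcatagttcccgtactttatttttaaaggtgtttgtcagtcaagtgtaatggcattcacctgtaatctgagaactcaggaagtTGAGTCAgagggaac
AU020206, chr7:75800614-75800813: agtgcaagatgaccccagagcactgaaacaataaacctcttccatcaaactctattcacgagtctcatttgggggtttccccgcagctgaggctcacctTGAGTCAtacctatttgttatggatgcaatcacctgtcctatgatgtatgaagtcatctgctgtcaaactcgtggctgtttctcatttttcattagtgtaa

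At these 3 regions the groups did not overlap. The Kat2b region (chr17:53581966-53582682) was at 27.4, 23.5 and 22.3 CPM in controls and at 11.8, 14.02, 12.4 and 10.9 CPM without Atg14 (log2 fold change -0.996 ± 0.24, edgeR adjusted p = 0.564). The Gmfb region, within 1 Mb of Atg14 on chromosome 14, was at 18.6, 24.2 and 14.3 CPM in controls and at 12.6, 3.89, 5.26 and 7.07 CPM without Atg14 (adjusted p = 0.275 by edgeR). The AU020206 region was at 13.4, 12.2 and 6.24 CPM in controls and at 3.36, 4.67, 5.26 and 3.85 CPM without Atg14 (edgeR adjusted p = 0.952). In eTregs the Kat2b, Gmfb and AU020206 regions had log2 fold changes of -0.96 ± 0.24, -1.53 ± 0.31 and -0.60 ± 0.31.

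The split of called regions into more and less accessible depended on scaling and on single libraries. With libraries scaled by their totals, 59.6% of called regions were more accessible. With loess offsets 975 were more and 1097 less accessible (47.1% more), with GC-content offsets 1025 and 1062, and with each library's promoter share as a covariate 1359 and 1623. Leaving out control replicate 2 gave 2073 and 658, leaving out control replicate 3 gave 1048 and 1138, and leaving out Atg14-deficient replicate 4 gave 1048 and 1459. Control replicate 2 and Atg14-deficient replicate 4 had the highest summed levels of the effector and tissue Treg list among cTreg libraries. These were 4505 and 4543 CPM, against at most 4283 CPM in the other cTreg libraries. The part of these levels in the split was not tested. The median log2 fold change over all tested regions moved only from 0.03 to 0.01 with TMM and to 0.00 with GC-content offsets. Relative to those medians 2 of the 19 lists changed side with loess and with GC-content offsets and 0 did with TMM, and with GC-content offsets the autophagy list went from below (0.015 against 0.028) to above (0.0094 against 0.00069) and the interferon list from above (0.037) to below (-0.01).

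**Figure D5:**
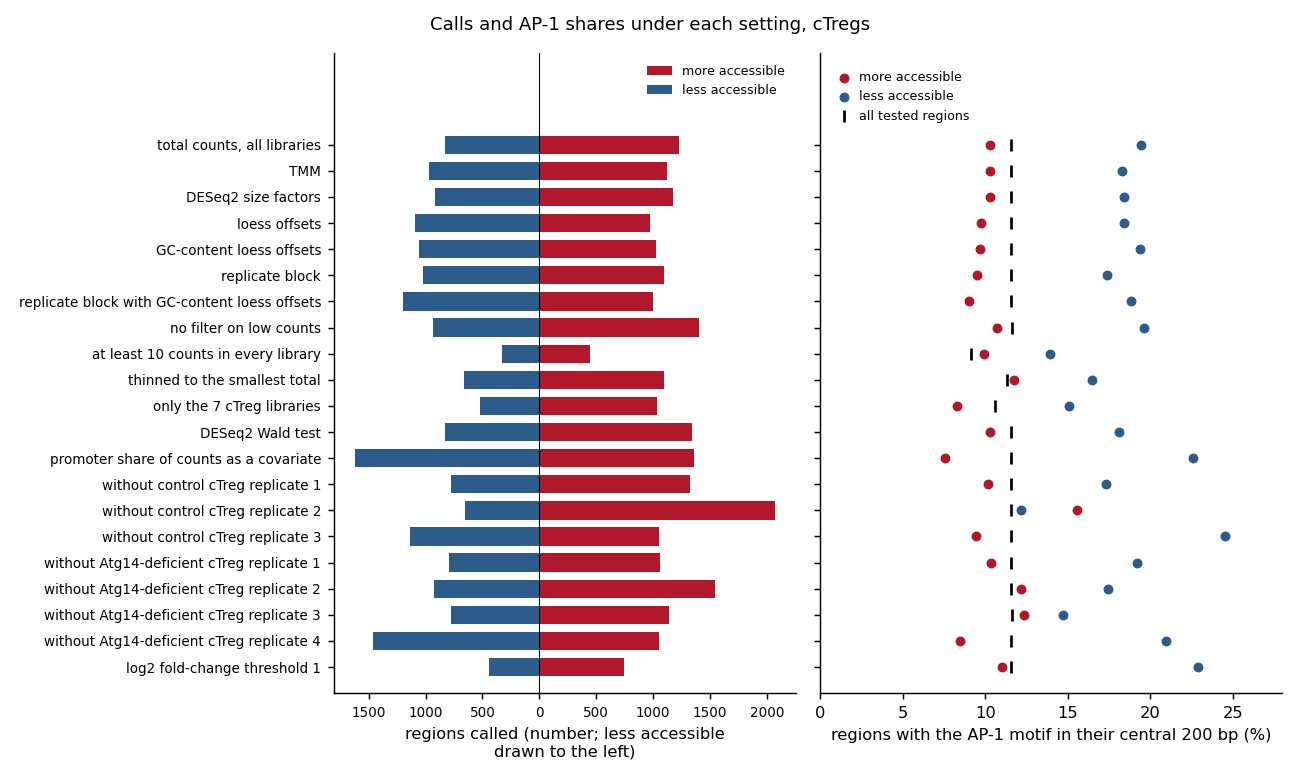
The left panel gives the number of regions called more (red) and less accessible (blue) in Atg14-deficient cTregs under each setting, and the right panel the percentage of called regions with the AP-1 letters in their central 200 bp, with black marks for all tested regions. Less accessible regions have the higher AP-1 share in each setting except without control replicate 2, where they have 12.2% against 15.5%.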

How the data were processed

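The deposited table, made by the authors, holds raw counts of nucleosome-free reads in 67254 merged accessible regions for 14 libraries. Per the study's methods, reads were trimmed, aligned with BWA, filtered for quality and duplicates and shifted for the transposase, and peaks called per library with MACS2 were kept if present in at least 50% of replicates and merged. The submitters' processing notes name MACS2 2.1.0.20150603, cutadapt 1.9 and GRCm38, while the methods name mm9. Coordinates were taken as GRCm38, in which 0 regions lay beyond a chromosome end and 10147 of 21774 protein-coding starts had a region within 200 bp, and 758 did once all regions were moved by 20000 bp. Most counts were even numbers (79.7% to 87.0% per cTreg library), as when both mates of a pair are counted, which was not tested. If so, a count holds fewer independent fragments than its number.

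All 14 libraries in 4 groups were fitted with edgeR 4.0.16 (R 4.3.3, robust quasi-likelihood test, total-count scaling, filterByExpr), and p-values were adjusted by Benjamini-Hochberg over all regions tested. Calls needed p below 0.05 and an absolute log2 fold change above 0.5. Counts were also summed per gene over all regions whose nearest RefSeq start belonged to it. Summed levels and CPM use each library's total. The median mean count was 21.4 per cTreg library in tested regions, and the spread between replicates (biological coefficient of variation) was 25.6% for regions. Scripts were tested on simulated data. The labels do not say whether replicate numbers pair the libraries, and the main fit took all 14 as independent. Deviations of same-numbered control and Atg14-deficient cTregs from their group means had correlations of 0.0041, -0.22 and 0.091. Those with different numbers had correlations from -0.22 to 0.28. Pairing of cTreg with eTreg libraries of the same number was not checked.

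The members and the 19 gene lists (447 distinct symbols, 22 of them at no tested region) were chosen with earlier results of these data known. Named were the regions of Atg14, regions and genes past the adjusted threshold, the called list region with the smallest p in each direction, genes with the most called regions in 1 direction, and promoters of marker genes. Other called regions of the lists, and the AP-1 regions, were named after their values were seen. DESeq2 1.42.0, other scalings, filters, covariates and leaving out each library were alternatives. Values of 1 region past the adjusted threshold, and of a few other named genes, are not reported here.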

Additional observations from a re-analysis of the deposited data

Results flagged for a closer look

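Among 70 groups of 4 Atg14-deficient libraries at named regions and genes, 2 had a library far from the others by Dixon's test at its 95% critical value, and chance alone gives about 1 in 20 groups. Both were Atg14-deficient cTreg replicate 2. At the intronic Smad3 region (chr9:63714611-63714860) it was at 3.89 CPM, against 0.84, 1.05 and 1.28 CPM in the other 3 libraries and 4.01 to 4.89 CPM in controls. At the Ccr7 promoter region it was at 18.7 CPM, against 42.9 to 44.0 CPM in the other 3 libraries and 23.6 to 38.4 CPM in controls.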

How the results depend on the processing

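Of 617 values for named regions over the alternatives, 585 kept their direction and side of the threshold, 28 lost the adjusted threshold and 4 turned direction, and of 396 for named genes 366 kept both, 24 lost it, 1 gained it and 5 turned. Counts of called regions in the gene lists were less stable, since of 760 values 533 stayed within 1.5 times the reported count, 98 were lower and 129 higher. With at least 10 counts in every library, 773 regions were called (p below 0.05 at any fold change for 4.20%), 0 regions and 6 genes passed the edgeR adjusted threshold, and 264 genes passed the looser one. The DESeq2 Wald test gave 18 adjusted regions, and a log2 fold change beyond 1 left 1192 regions and 149 genes. Leaving out single libraries gave 1856 to 2731 called and 4 to 11 adjusted regions, 393 to 568 called and 4 to 11 adjusted genes, promoter shares of 12.4% to 16.2%, and AP-1 shares of 8.49% to 15.5% of more and 12.2% to 24.5% of less accessible regions. The replicate block, with numbers not known to pair the libraries, gave 2122 called and 9 adjusted regions, and Pnp2 lost its adjusted call (edgeR adjusted p = 0.0811). The promoter share of called regions was 15.4% with the block, 15.0% with block and GC offsets, 21.5% with at least 10 counts, 16.8% thinned to the smallest total, 9.23% at the larger fold change and 8.92% within 250 bp of a start. The AP-1 share of less accessible regions was 13.9% with at least 10 counts, 16.5% thinned, 15.1% with only the cTreg libraries, 22.6% with the promoter covariate, 22.9% at the larger fold change and 27.9% over whole regions, and of more accessible regions 8.30% with only the cTreg libraries, 7.58% with the covariate and 15.4% over whole regions. The log2 fold change of the Atg14 region from 47529084 turned from -0.07 to 0.13 with the covariate, and lay between -0.24 and 0.20 without single libraries, above 0 without control replicate 3 and Atg14-deficient replicates 3 and 4. That of 1700016G22Rik turned from -0.04 to 0.031 with the block, 0.0068 with block and GC offsets and 0.072 with the covariate, and lay between -0.093 and 0.032 without single libraries, above 0 without Atg14-deficient replicate 4, and that of Mir3970 from -0.21 to 0.17 with regions within 50 kb. The cause of these shifts was not tested. Regions of few counts limit precision, and a difference that missed the threshold at this depth is not shown to be absent.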
